A study of Schizosaccharomyces pombe with 30 samples.

Results

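H3K9me2 ChIP-seq of the fission yeast Schizosaccharomyces pombe was compared between cells that lack the forkhead transcription factor Fkh2 (Δfkh2, 3 libraries) and cells that carry the clr6-1 allele of a histone deacetylase gene (clr6-1, 2 libraries), over all 1500 windows of 300 bp that the authors had retained as enriched. The 5 libraries were chosen by genotype, as the H3K9me2 ChIP libraries of strains PAS798 (replicates A, B and C) and PAS839 (A and B) with a column of counts, out of 30 samples and 13 such columns in the series. PAS798 carries a complete deletion, fkh2::natMX, made in the PAS332 background. PAS839 is homothallic (h90) and carries clr6-1, a partial loss-of-function allele of an essential gene grown at a temperature that permits growth. Both strains, and the wild-type PAS332, share the MAT ΔREIII background, which lacks a functional REIII element at the mating type locus, and the reporters cenH::ade6p:SF-GFP, mat3m(EcoRV)::ade6p:mKO2 and ade6p:3xE2C:hygMX. All cultures were grown in rich medium at 32°C for 8 hours from an optical density of 0.1, and the libraries are described as biological replicates. The authors had set aside 1 clr6-1 and 1 wild-type library as outliers, and neither these nor the 15 inputs were analysed here, so that every value is a ChIP count without input correction. Counts around fkh2 itself had been removed before deposition, and the deletion could not be checked in these data.

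In fission yeast, heterochromatin is marked by methylation of histone H3 at lysine 9. It is nucleated at the dg and dh repeats of the pericentromeres, at the related sequence in the subtelomeric helicase genes tlh1 and tlh2 and at the cenH element of the mating type locus, largely through RNA interference, and then spreads along the neighbouring chromatin until it meets a boundary such as a cluster of tRNA genes. Short facultative islands form over meiotic genes through RNA elimination factors. Clr6 is a class I histone deacetylase and acts in several complexes, and Fkh2 is a forkhead factor known for the periodic transcription of cell cycle genes. The study asked whether Fkh2 acts together with Clr6 complexes, and the comparison asks where loss of Fkh2 and partial loss of Clr6 leave different amounts of H3K9me2.

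The windows on which the results below turn are shown as reference sequence, 5′ to 3′, from RefSeq (assembly ASM294v3, whose chromosome lengths equal those of the files). The first pair is coding sequence with no other copy in the genome, where Δfkh2 read higher than clr6-1: a window of vps29 at I:3727801-3728100 (plus strand), which encodes a retromer subunit, and a window of mei4 at II:1474201-1474500 (plus strand), which encodes a forkhead activator of meiotic genes. Neither holds a match to the forkhead motif GTAAACA.
vps29 window: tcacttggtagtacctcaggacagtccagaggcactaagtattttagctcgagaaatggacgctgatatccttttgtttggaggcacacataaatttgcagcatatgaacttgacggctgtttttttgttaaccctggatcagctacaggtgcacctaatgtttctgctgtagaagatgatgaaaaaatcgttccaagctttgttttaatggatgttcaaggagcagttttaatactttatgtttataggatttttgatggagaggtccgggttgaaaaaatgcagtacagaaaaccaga
mei4 window: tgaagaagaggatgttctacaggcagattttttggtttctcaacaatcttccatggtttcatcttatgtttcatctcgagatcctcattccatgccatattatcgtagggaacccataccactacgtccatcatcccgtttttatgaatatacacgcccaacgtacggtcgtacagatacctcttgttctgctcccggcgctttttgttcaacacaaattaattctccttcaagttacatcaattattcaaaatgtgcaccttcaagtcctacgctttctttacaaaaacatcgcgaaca
The next is a dg/dh repeat window, III:1132501-1132800 (plus strand), of the class where Δfkh2 read lower, with the match to GTAAACA in capitals.
dg/dh window: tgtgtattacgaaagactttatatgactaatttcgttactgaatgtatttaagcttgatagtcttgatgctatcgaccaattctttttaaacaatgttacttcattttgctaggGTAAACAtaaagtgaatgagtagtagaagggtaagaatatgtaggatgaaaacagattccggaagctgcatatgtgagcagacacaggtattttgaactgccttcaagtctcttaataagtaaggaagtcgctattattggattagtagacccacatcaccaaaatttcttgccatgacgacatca
The last pair gave the 2 called windows of the mating type region, the left at II:2130601-2130900 (plus strand) and the right at II:2135401-2135700 (minus strand). Capitals mark 272 bases that are identical in both, in inverted orientation, so that a fragment from one cannot be told apart from a fragment of the other.
left repeat window: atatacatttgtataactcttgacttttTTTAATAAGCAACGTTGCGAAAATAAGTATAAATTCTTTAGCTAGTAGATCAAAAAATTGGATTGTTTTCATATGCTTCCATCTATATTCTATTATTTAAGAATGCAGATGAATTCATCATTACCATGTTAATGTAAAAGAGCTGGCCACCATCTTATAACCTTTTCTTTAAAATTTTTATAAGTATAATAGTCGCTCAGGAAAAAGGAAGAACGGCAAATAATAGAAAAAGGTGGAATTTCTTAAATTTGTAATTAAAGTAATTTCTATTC
right repeat window: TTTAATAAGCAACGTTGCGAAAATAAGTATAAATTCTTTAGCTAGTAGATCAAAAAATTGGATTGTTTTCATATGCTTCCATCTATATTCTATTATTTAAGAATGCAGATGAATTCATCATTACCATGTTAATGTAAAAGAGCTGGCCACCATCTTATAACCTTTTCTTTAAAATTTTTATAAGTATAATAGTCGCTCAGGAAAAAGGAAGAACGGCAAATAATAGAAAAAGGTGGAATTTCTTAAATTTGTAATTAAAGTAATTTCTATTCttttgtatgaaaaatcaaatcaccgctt

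The 5 kb bins, which tile the genome, held 6171299, 8683475 and 7804615 fragments in Δfkh2 A, B and C and 8355906 and 6619424 in clr6-1 A and B. The share of these fragments that fell in the 1500 windows was 30.8%, 50.5% and 36.9% in Δfkh2 and 68.4% and 70.3% in clr6-1, against 70.2% and 57.3% in wild-type B and C. All 3 Δfkh2 libraries thus lay below both clr6-1 libraries, at 39.4% ± 10.1 (SD, n = 3) against 69.3% ± 1.35 (SD, n = 2), with an exact permutation p of 0.1 (2-sided), the smallest that 3 libraries against 2 allow. Libraries were scaled by size factors of the 5 kb bins, and on that scale the bins without an enriched window corresponded to a background of 104.5 to 105.1 normalized counts per 300 bases in all 5 libraries. Δfkh2 B stood apart from its replicates. The median window of Δfkh2 A lay 1.23 below B on the log2 scale, whereas A and C differed by a median of 0.39 and clr6-1 A and B by 0.15 in absolute value, so the values of the main zones are also given without Δfkh2 B.

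Across the 1500 windows the median log2 difference, Δfkh2 minus clr6-1, was -0.60. In edgeR's quasi-likelihood test, with calls made where the p adjusted by Benjamini-Hochberg was below 0.005 and the fold change above 2, there were 3 windows lower in Δfkh2 (0.2% of those tested) and 3 higher (0.2%). At an adjusted p below 0.05 and the same fold, written below as at 0.05, the test gave 466 lower (31.1%) and 54 higher (3.6%). All 3 Δfkh2 libraries lay below both clr6-1 libraries in 767 windows (51.1%) and above both in 263 (17.5%). The count of calls thus turned on the threshold, since the lowest adjusted p of any dg/dh window was 0.0149. It also turned on single libraries. Without Δfkh2 B, 476 windows were called lower at 0.005 and 566 passed at 0.05, whereas leaving out clr6-1 A, clr6-1 B, Δfkh2 A or Δfkh2 C left 0 called lower, and 0, 2, 6 and 1 lower at 0.05. The 3 higher calls were lost without clr6-1 A or clr6-1 B, and the windows higher at 0.05 numbered 0, 0, 33, 8 and 9 without clr6-1 A, clr6-1 B, Δfkh2 A, Δfkh2 C and Δfkh2 B. The DESeq2 Wald test called 248 windows lower (34.7% of the 715 for which it returned an adjusted p) and 0 higher (0%). The windows it left without an adjusted p included all 6 of those called by edgeR, and without its filter on mean count, an alternative added after the data had been seen, it called 1 lower and 2 higher.

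The nucleation sequences were lower in Δfkh2, and the flanks held windows of both directions. Of the 466 windows lower in Δfkh2 at 0.05, 300 lay in the dg/dh repeats, 37 in tlh1 and tlh2, 71 at the mating type locus and 44 in the subtelomere flanks, which are the enriched windows of the outermost 100 kb of chromosomes I and II outside the helicase genes. The remaining 14 were 9 of the centromere flanks, 2 at the ends of chromosome III and 3 elsewhere. Of the 54 higher windows, 36 lay in the centromere flanks, 14 in the subtelomere flanks, 3 in the islands and 1 in a dg/dh repeat. The flanks together thus held 53 lower and 50 higher windows, and without Δfkh2 B 102 lower and 8 higher.

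Where 0 lies depended on the scaling, which moves all windows together. The median over all windows moved from -0.60 to 0.35 when the total count of the 5 kb bins was used, to 0.49 with TMM on the windows and to 1.77 with size factors from the nucleation windows, which are those of the dg/dh repeats, tlh1 and tlh2. The calls at 0.005 then split into 199 lower and 557 higher, 255 and 566, and 0 and 664, in place of 3 and 3. The dg/dh median was -1.32, -1.25 and -0.056 under these scalings and the centromere flank median 1.45, 1.56 and 2.80. With the nucleation windows as the reference, the medians of tlh1 and tlh2 and of the mating type locus turned to 0.21 and 0.46.

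**Figure D1:**
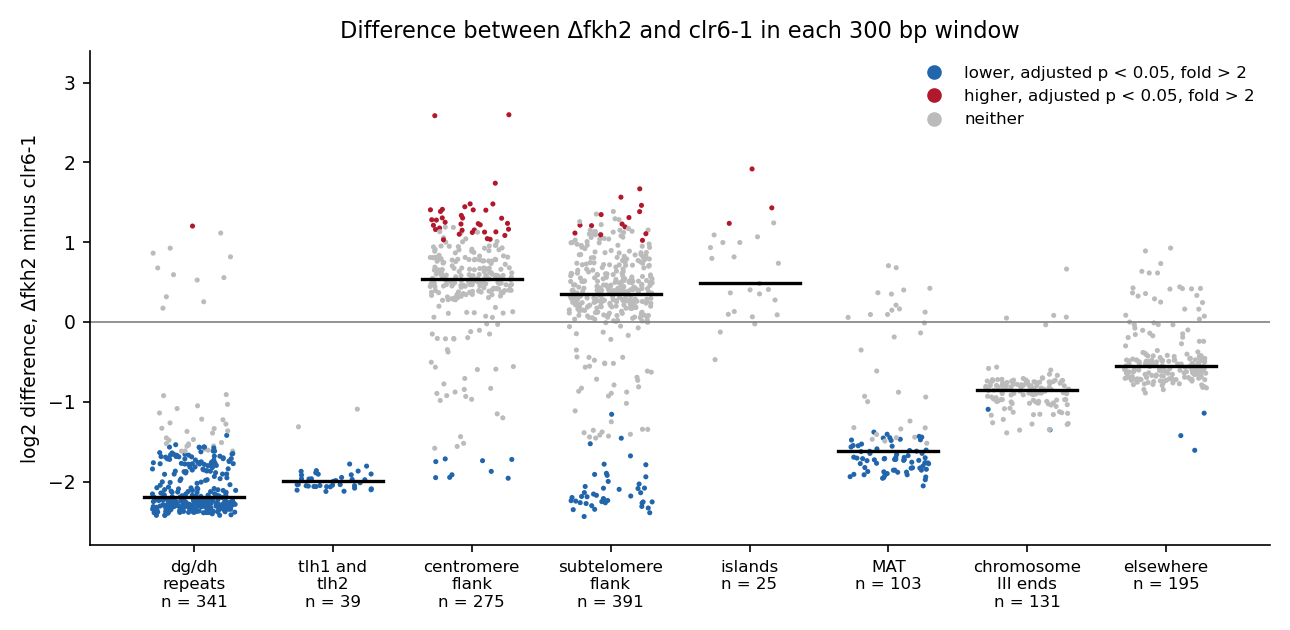
Log2 difference in H3K9me2 (Δfkh2 minus clr6-1, edgeR, scaled on the 5 kb bins) of each of the 1500 windows, 1 point per window, by zone, with the zone median as a black bar and colour for windows with an adjusted p below 0.05 and a fold change above 2. The median is -2.20 in the dg/dh repeats and -2.00 in tlh1 and tlh2 but 0.54 in the centromere flanks, and with size factors taken from the nucleation windows themselves these become -0.056, 0.21 and 2.80.

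The dg and dh repeats, the RNA interference-dependent nucleation sequences, carried the lower signal in Δfkh2. The 341 dg/dh windows averaged 2370.0, 7202 and 3157 normalized counts per window in Δfkh2 A, B and C, and 17060.0 and 19305 in clr6-1 A and B. Wild-type B and C read 19972 and 10612, so both clr6-1 libraries lay between the wild-type libraries and all 3 Δfkh2 libraries below both. The clr6-1 level was 4.80 times that of Δfkh2, a log2 difference of -2.26 (exact permutation p = 0.2, 2-sided, where the smallest possible is 0.1). Without Δfkh2 B the difference was -2.73. By window the median was -2.20, 300 of 341 windows were lower at an adjusted p of 0.05 and 329 had all Δfkh2 libraries below both clr6-1 libraries, against 31.1% and 51.1% of all windows.

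The repeats of all 3 centromeres had negative medians. The median was -1.87 at centromere I, where 68 of 78 dg/dh windows were lower at 0.05, -1.97 at centromere II, where 75 of 88 were lower, and -2.29 at centromere III, where 157 of 175 were lower. The 12 windows that did not have all Δfkh2 libraries below clr6-1 comprised 8 at centromere II and 4 at centromere III, with log2 differences from 0.17 to 1.20. The repeat window with the largest difference, III:1113301-1113600, read 884, 4142 and 1545 in Δfkh2 and 11402 and 12131 in clr6-1, a log2 difference of -2.43 that passed 0.05 but was not called. It has 9 other copies at 90% identity or more. The window shown above with a forkhead motif read 3390.3, 9827 and 4489 in Δfkh2 and 28033 and 31744 in clr6-1, a log2 difference of -2.34 (edgeR adjusted p = 0.0149). Because repeat copies share fragments, neighbouring and homologous windows are not independent, and the counts describe the repeat class rather than single copies.

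**Figure D2:**
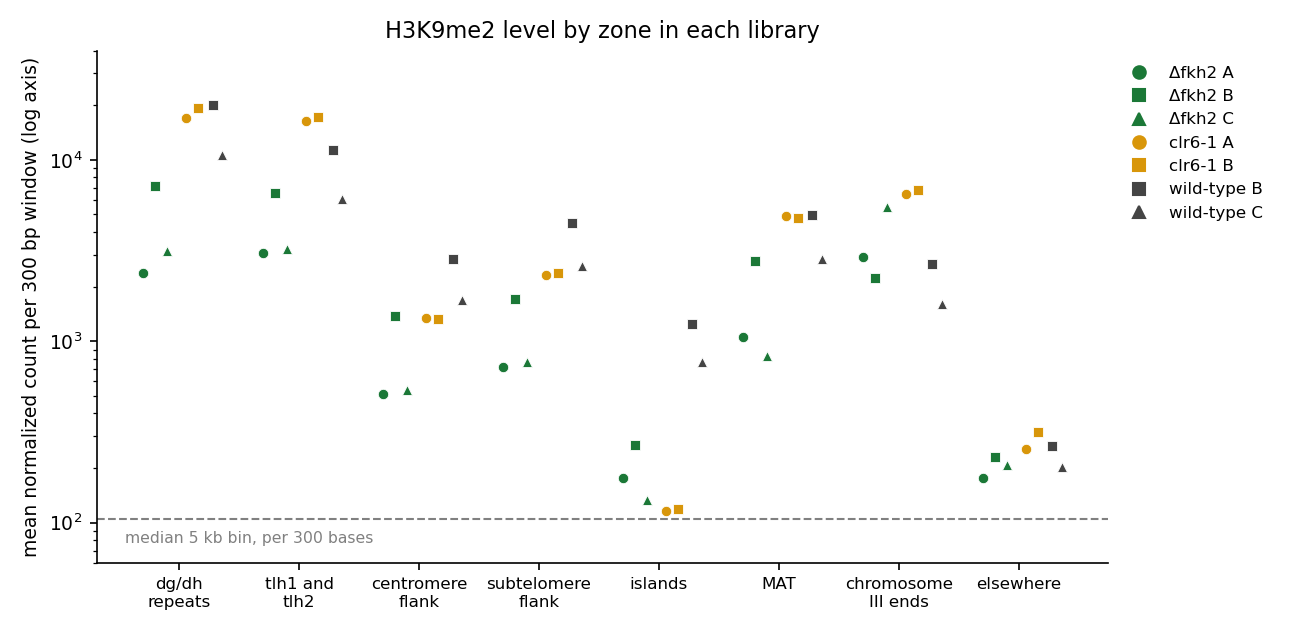
Mean normalized H3K9me2 count per window in each zone (log axis), 1 point per library, for Δfkh2 A to C, clr6-1 A and B and wild-type B and C, with the background of the bins without an enriched window as a dashed line. In the dg/dh repeats Δfkh2 sits between 2370.0 and 7202 and clr6-1 at 17060.0 and 19305, whereas in the islands clr6-1 sits at 116 and 119, close to the background, and Δfkh2 between 134 and 267.

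The subtelomeric helicase genes behaved like the repeats. Both tlh1 and tlh2 encode RecQ-type DNA helicases and contain sequence related to the pericentromeric repeats. Their 39 windows averaged 3073, 6604 and 3228 normalized counts in Δfkh2 and 16464 and 17313 in clr6-1, a 4.19-fold higher level in clr6-1 (log2 difference -2.07, exact permutation p = 0.1, 2-sided). Wild-type read 11275 and 6059, below both clr6-1 libraries, and Δfkh2 B lay within the wild-type range while A and C lay below it. All 39 windows had the 3 Δfkh2 libraries below clr6-1 and 37 were lower at 0.05, against 51.1% and 31.1% of all windows. In the most different, II:4527601-4527900 within tlh2, Δfkh2 read 2976, 6442 and 3071 and clr6-1 17821 and 18472, at a log2 difference of -2.12 (edgeR adjusted p = 0.0156). This stretch is identical in tlh1.

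At the mating type locus the silent donor cassettes are kept inactive. There, 81 of 103 windows (78.6%) had all Δfkh2 libraries below clr6-1 and 71 (68.9%) were lower at 0.05, with none higher. Over all windows these shares were 51.1% and 31.1%. The locus averaged 1049, 2753 and 826 normalized counts per window in Δfkh2 and 4914 and 4763 in clr6-1, against 4946 and 2828 in wild-type (log2 difference -1.86, exact permutation p = 0.2). Without Δfkh2 B the median of the locus went from -1.62 to -2.36. Windows of the separate mating type contig and those on chromosome II had medians of -1.66 and -1.43, but those on chromosome II were split. All Δfkh2 libraries lay below clr6-1 in 61 of 65 contig windows (93.8%) and in 20 of 38 windows on chromosome II (52.6%). On chromosome II 11 of the 38 windows had a positive difference. The 2 called windows of the locus were the inverted pair shown above. The left window read 99.0, 598 and 147 in Δfkh2 and 1133 and 932 in clr6-1, and the right window 118, 581 and 149 against 1221 and 909. In both, every Δfkh2 library was below every clr6-1 library, at log2 differences of -1.88 and -1.91 (edgeR adjusted p = 0.00243 for each). Because fragments of the shared stretch cannot be assigned to one copy, the 2 windows are not independent measurements.

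The flanks gave values of both signs. The 275 centromere flank windows, which lie in the pericentromeric domains outside the repeats, had a median log2 difference of 0.54, and 36 were higher in Δfkh2 at 0.05 against 9 lower. These were 13.1% and 3.27% of the zone, against 3.6% and 31.1% of all windows. Without Δfkh2 B the median was 0.19, with 5 higher and 32 lower. All Δfkh2 libraries lay above both clr6-1 libraries in 133 of the 275 (48.4%, against 17.5% of all windows) and below in 19 (6.91%, against 51.1%). The mean level per window gave another picture, at 511, 1374 and 537 in Δfkh2 and 1348 and 1324 in clr6-1, so that the groups overlapped and the summed level had the opposite sign (log2 difference -0.89, exact permutation p = 0.4). The 9 lower windows, with log2 differences from -1.96 to -1.72, all lay at centromere II within 1 kb of a repeat window. Medians by centromere were 0.63, 0.62 and 0.44 for I, II and III, with all Δfkh2 libraries above clr6-1 in 60 of 103, 41 of 68 and 32 of 104 windows.

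Many of the pericentromeric tRNA genes, which act as heterochromatin boundaries, lie in these flanks. Of 56 tRNA genes with an enriched window, 46 lay in centromere flank windows and 10 in windows of the dg/dh class, and neighbouring genes can share a window. The 46 had median differences from 0.07 to 1.48, and 16 of them had all Δfkh2 libraries above clr6-1 while the groups overlapped in 30. Counted by window, all Δfkh2 libraries lay above in 19 of the 44 flank windows with a tRNA gene (43.2%). The share was 49.4% in the 231 centromere flank windows without one and 17.5% in all windows. At 0.05, 15 of the 44 were higher, against 21 of the 231 and 3.6% of all windows. The tRNA windows were thus not above the rest of the flank in the first share but were in the second. Their median was 0.98 with all libraries but 0.18 without Δfkh2 B, when 0 were higher at 0.05 and 1 was lower. In the 231 windows the median was 0.49, and 0.19 without Δfkh2 B, when 5 were higher and 31 lower. A leucine tRNA gene of centromere II, SPBTRNALEU.07, had the largest difference, at 404, 1311 and 423 in Δfkh2 and 299 and 211 in clr6-1, with 3407 and 1918 in wild-type. Here Δfkh2 B was well above A and C, the log2 difference was 1.48 with B and 0.69 without it, and both genotypes were far below wild-type. The 11 dg/dh windows with a tRNA gene, all among the 12 exceptions of the repeats, had a median of 0.59, and of -0.30 without Δfkh2 B.

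In the subtelomere flanks with a helicase gene, the left end of chromosome I and the right end of chromosome II, the difference changed sign with distance from it. The left end of chromosome II (69 windows) and the right end of chromosome I (87 windows) have no helicase window and are not in the distances below. Their medians were 0.42 and 0.37, with 0 and 7 windows lower and 4 and 1 higher at 0.05. Among all windows 31.1% were lower and 3.6% higher at 0.05. Within 5 kb of tlh1 or tlh2 the median of 50 windows was -2.09, and 34 were lower in Δfkh2 at 0.05 with 0 higher. Between 5 and 10 kb the median was -0.07, between 10 and 15 kb 0.59, between 15 and 20 kb 0.98, between 20 and 25 kb 0.46, and at 25 kb or more 0.26. The farthest lower window lay 6.00 kb from tlh1 on the left end of chromosome I and 6.30 kb from tlh2 on the right end of chromosome II, and the nearest higher window 16.2 kb and 10.8 kb away. From 15 to 20 kb the mean level was 358, 890 and 476 in Δfkh2 and 300.3 and 313 in clr6-1, against 4118 and 2417 in wild-type. All Δfkh2 libraries lay above clr6-1 there in 28 of 34 windows, against 17.5% of all windows. Without Δfkh2 B the medians, in the same order of distance, were -2.72, -0.82, 0.044, 0.47, 0.029 and -0.041. Most of the positive difference beyond 10 kb thus rested on that library. From 15 to 20 kb the windows higher at 0.05 went from 4 to 0 without it. Over all 391 subtelomere flank windows the median was 0.35, but -0.035 without Δfkh2 B, and the summed level again had the other sign at -1.25 (exact permutation p = 0.2).

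**Figure D3:**
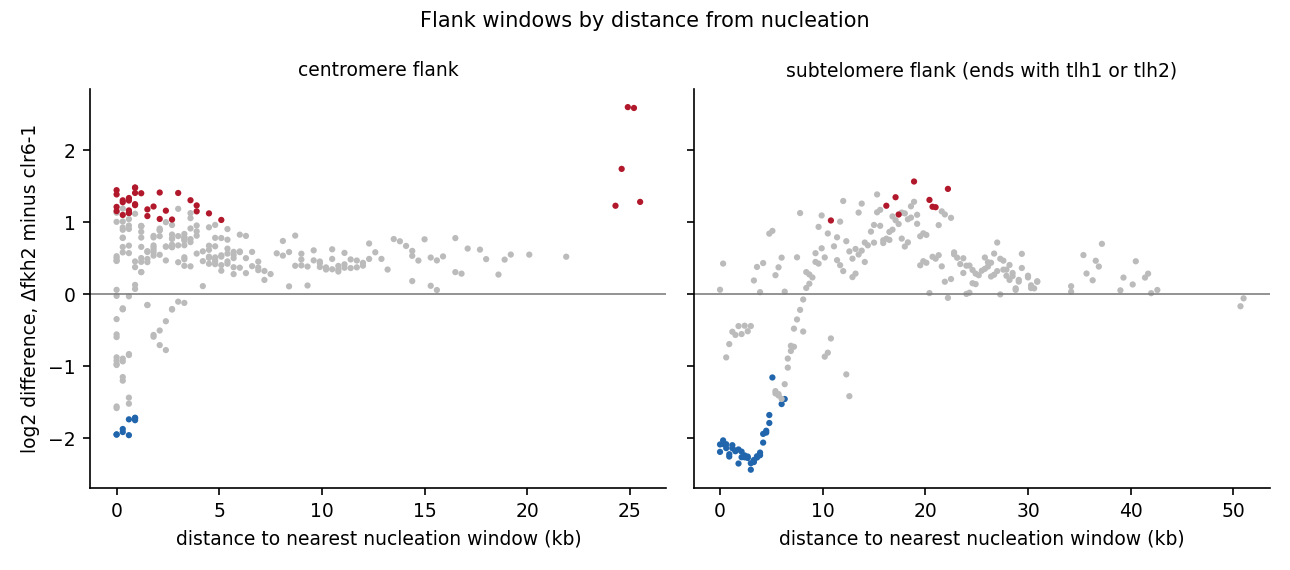
Log2 difference (Δfkh2 minus clr6-1) of centromere flank and subtelomere flank windows against distance in kb from the nearest nucleation window of the same location, 1 point per window. Subtelomeric windows within 5 kb of tlh1 or tlh2 have a median of -2.09 and those from 15 to 20 kb a median of 0.98 (0.47 without Δfkh2 B). Centromere flank windows within 5 kb of a repeat have a median of 0.66. With size factors from the nucleation windows the median over all windows moves from -0.60 to 1.77, which shifts every point upwards.

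Most subtelomeric genes lay in the range where the groups overlapped. Of 48 subtelomeric protein-coding genes that encode neither transporters nor cell surface proteins, 12 had all Δfkh2 libraries above clr6-1, 4 had all below and 32 overlapped. Among single windows of the subtelomere flanks 25.6% lay above and 16.1% below, and among all windows 17.5% and 51.1%. The median of gene medians was 0.31. The 3 transporter genes had a median of 0.26 with overlapping groups, and the 2 cell surface protein genes one of 0.47. The lowest was SPAC750.08C at the right end of chromosome I, which encodes a malic enzyme, at 1680.5, 4171 and 1805 in Δfkh2 and 12347 and 13335 in clr6-1, with a median of -2.31. The subtelomere flank window with the largest difference, I:8701-9000 in SPAC212.09C, had a log2 difference of -2.44 and an identical copy on chromosome II.

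Many flank windows of both mutants were close to the background. Of 666 flank windows of the centromeres and subtelomeres, 277, 14 and 189 were under 2 times the background in Δfkh2 A, B and C, and 293 and 282 in clr6-1 A and B, against 0 and 1 in wild-type B and C. Their median level was 239.7, 570 and 315 normalized counts in Δfkh2 and 238 and 241 in clr6-1, against 2129 and 1269 in wild-type. Δfkh2 A thus had nearly the clr6-1 median. Δfkh2 B had the fewest windows near the background of the 5 libraries and C lay between A and B.

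The flank signal relative to the repeat signal of the same library does not depend on scaling between libraries. Spreading was expressed as the log2 ratio of the summed flank counts to the summed nucleation counts, where nucleation windows are those of the dg/dh repeats and of tlh1 and tlh2. It was -1.13, -1.37 and -1.43 in Δfkh2 A, B and C and -2.34 and -2.49 in clr6-1 A and B, with -1.52 and -1.38 in wild-type. The flanks thus held 45.6%, 38.7% and 37.2% of the nucleation signal in Δfkh2, 19.7% and 17.8% in clr6-1 and 34.9% and 38.3% in wild-type. This pooled share joins locations where the Δfkh2 share, with background left in, lay on opposite sides of wild-type. At the centromeres alone it was 17.4%, 15.4% and 13.7% in Δfkh2, 6.37% and 5.53% in clr6-1 and 11.5% and 12.9% in wild-type. At the subtelomeres alone it was 236%, 261% and 238% in Δfkh2, 141% and 137% in clr6-1 and 397% and 428% in wild-type. Background was not subtracted from these shares, so whether Δfkh2 lay above wild-type at the centromeres is not settled by them. The means of the pooled log2 ratio were -1.31 ± 0.16 (SD, n = 3) and -2.42 ± 0.11 (SD, n = 2). This was a difference of 1.11, larger than the spread within either genotype (exact permutation p = 0.1, 2-sided, the smallest possible). Leaving out single libraries moved it between 1.02 and 1.18, and background subtraction moved it to 1.02. Δfkh2 B, which stood apart in level, lay between A and C in this ratio. The higher ratio did not mean more flank signal. The summed flank level was lower in Δfkh2 than in clr6-1 (log2 difference -1.14), and the summed nucleation level was lower by more (-2.24). Mean flank counts per window were 635, 1575 and 672 in Δfkh2, 1915 and 1938 in clr6-1 and 3801 and 2218 in wild-type.

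The order of the genotypes was alike at each location measured. The difference in ratio was 2.38 at centromere I, where the flanks held 15.1%, 12.5% and 11.9% of the repeat signal in Δfkh2 and 2.73% and 2.32% in clr6-1. It was 0.80 at centromere II and 1.88 at centromere III. Next to the helicase genes it was 0.53 at the left end of chromosome I and 0.82 at the right end of chromosome II. At each of these 5 locations all Δfkh2 libraries lay above both clr6-1 libraries (exact permutation p = 0.1 each, 2-sided). The differences between locations were not tested.

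**Figure D4:**
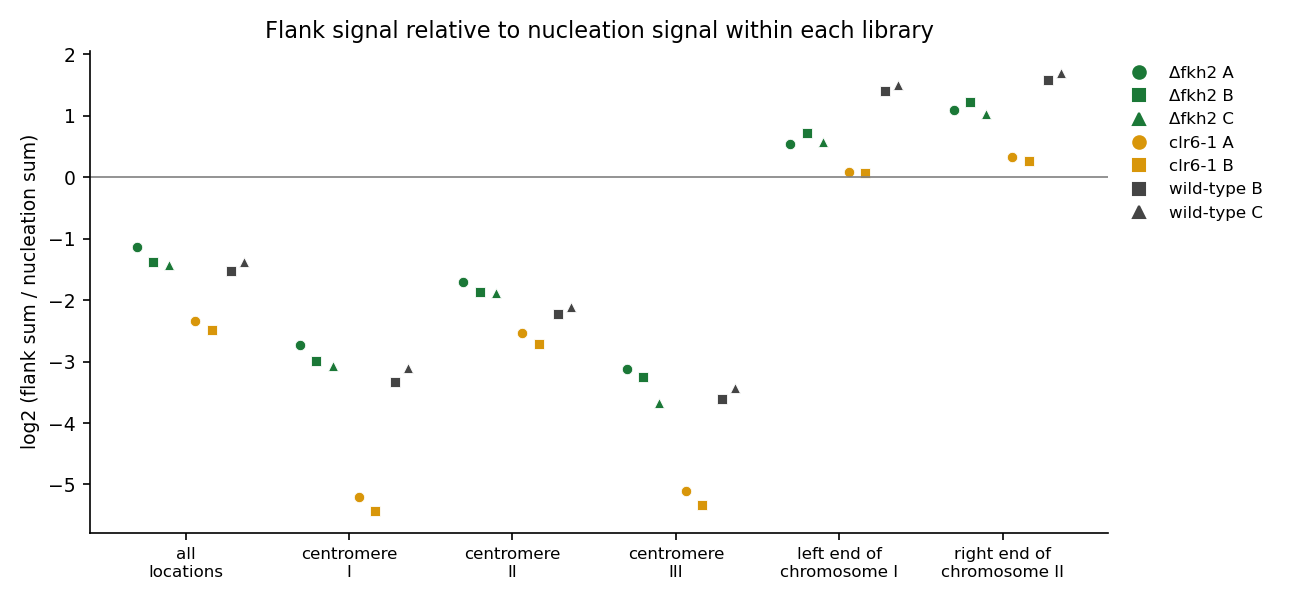
Log2 ratio of summed flank counts to summed nucleation counts within each library, 1 point per library, for all locations together, for centromeres I, II and III and for the left end of chromosome I and the right end of chromosome II. All Δfkh2 points lie above both clr6-1 points at every location, with overall means of -1.31 (n = 3) and -2.42 (n = 2).

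The islands over meiotic genes were near background in clr6-1. Their 25 windows averaged 177, 267 and 134 normalized counts in Δfkh2 and 116 and 119 in clr6-1, against 1246 and 765 in wild-type (log2 difference 0.65, exact permutation p = 0.2). All 25 windows were under 2 times the background in both clr6-1 libraries, as were 19, 12 and 24 in Δfkh2 A, B and C. Over mei4, all 6 windows had the 3 Δfkh2 libraries above clr6-1 and 3 were higher at 0.05, against 17.5% and 3.6% of all windows. The mean over mei4 was 273, 453 and 186 in Δfkh2 against 130 and 127 in clr6-1. Without Δfkh2 B, 1 island window was higher at 0.05. The mei4 window shown above read 418, 799 and 255 in Δfkh2 and 120.0 and 139.6 in clr6-1, with 2933 and 1859 in wild-type (log2 difference 1.92, SE 0.59, edgeR adjusted p = 0.0149). It passed 0.05 and was not called. Over the islands of ssm4, a dynactin subunit that moves the meiotic nucleus, and mcp7, a factor of meiotic recombination, the median differences were 0.38 and 0.41 and no window passed.

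Of the 11 listed meiotic genes, 7 had enriched windows. All Δfkh2 libraries lay above clr6-1 over 4 of them and the groups overlapped over the other 3, with a median of 0.42. Among all single windows 17.5% lay above. Over num1, whose product anchors dynein at the cell cortex, Δfkh2 read 153, 202 and 138 and clr6-1 118 and 109. Only mei4 had a window higher at 0.05. All of these levels were within a few times the background, and without Δfkh2 B the island difference was 0.39.

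The 3 windows called higher in Δfkh2 were neighbours over vps29 and the adjacent moa1. They lie to the left of centromere I, the nearest 24.6 kb from a dg/dh window, and have no other copy in the genome. The window at I:3727801-3728100 read 707, 1622 and 426 in Δfkh2 and 176 and 129 in clr6-1, with 664 and 409 in wild-type. All 3 Δfkh2 libraries were above both clr6-1 libraries and above the lower wild-type library. The log2 difference was 2.59 (SE 0.48, edgeR adjusted p = 6.99e-05). The next window, I:3728101-3728400, read 687, 1493 and 329 against 134 and 142, with 852 and 545 in wild-type, a log2 difference of 2.60 and the same adjusted p. Here Δfkh2 C was below both wild-type libraries.

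The signal over vps29 formed a short peak. The third called window, I:3728401-3728700, spans the end of vps29 and part of moa1, the gene of the meiosis-specific kinetochore protein meikin, and read 456, 1006 and 253 against 189 and 153, with 601 and 435 in wild-type and Δfkh2 C again below both (log2 difference 1.74, edgeR adjusted p = 0.00417). The windows on either side, I:3727501-3727800 and I:3728701-3729000, had log2 differences of 1.28 and 1.23 (edgeR adjusted p = 0.0149 for both). Beyond this run of 5 windows the next enriched window, over grx2, read 0.52. The call on the window at 3728101 was lost without clr6-1 A, without clr6-1 B and when the 3 other genotypes were left out of the fit, at log2 differences of 2.56, 2.64 and 2.60. Without Δfkh2 B the difference was 1.88 and the call held.

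**Figure D5:**
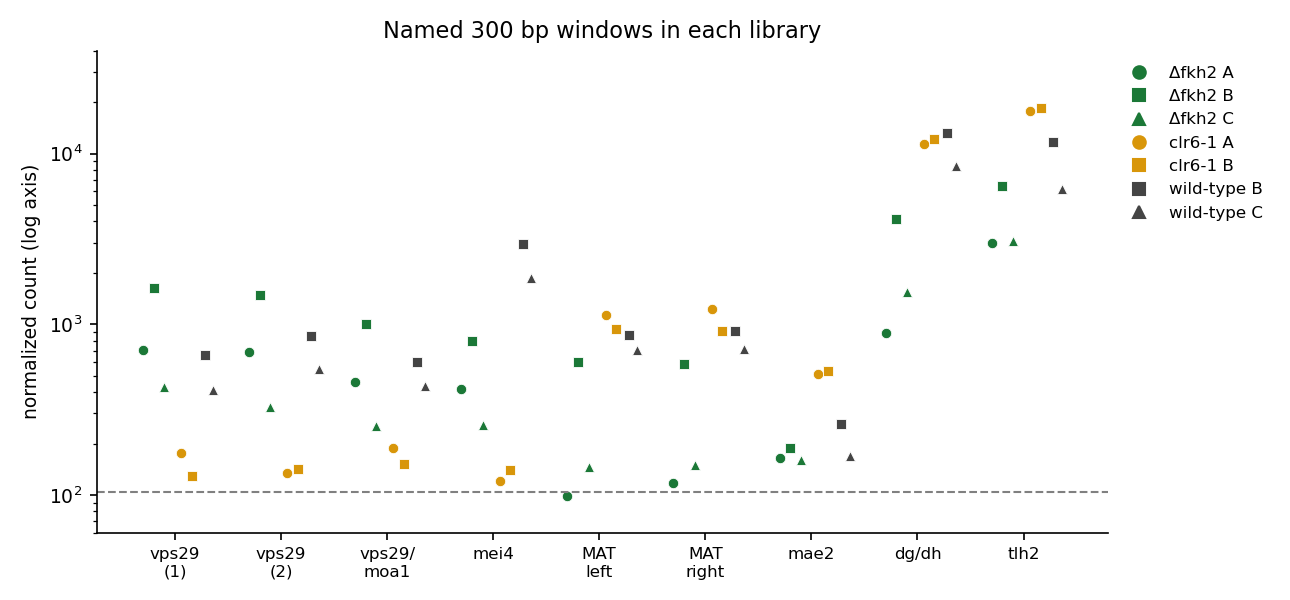
Normalized H3K9me2 count (log axis) of 9 windows described in the text, 1 point per library. In the vps29 window at I:3728101 the Δfkh2 libraries read 687, 1493 and 329 and clr6-1 134 and 142, and in the mae2 window at III:276601 all 3 Δfkh2 libraries read below 509, the lower clr6-1 library.

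The third window called lower lay outside the large domains, at III:276601-276900 in the coding sequence of mae2, annotated as a malate dehydrogenase. It read 164, 188 and 160 in Δfkh2 and 509 and 533 in clr6-1, with 261 and 170 in wild-type. Both clr6-1 libraries stood above every Δfkh2 and wild-type library, and Δfkh2 B lay between the wild-type libraries with A and C just below (log2 difference -1.61, SE 0.33, edgeR adjusted p = 0.000692). The window is 94.0% identical over 300 bases to 2 subtelomeric stretches, in SPAC212.09C on chromosome I and SPBCPT2R1.07C on chromosome II. Windows over those copies read 2828 to 7561 in Δfkh2 and 18468 to 22854 in clr6-1. Their part in the mae2 value was not tested.

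At the ends of chromosome III, which hold the ribosomal DNA arrays, 105 of 131 windows (80.2%) had all Δfkh2 libraries below clr6-1. Only 2 (1.53%) were lower at 0.05. Over all windows these shares were 51.1% and 31.1%. They averaged 2918, 2227 and 5492 in Δfkh2 and 6485 and 6807 in clr6-1, with 2681 and 1608 in wild-type. Here Δfkh2 C, and not B, was the highest Δfkh2 library, and clr6-1 was above wild-type (log2 difference -1.01, exact permutation p = 0.2). The window with the largest difference, III:2448601-2448900, had a log2 difference of -1.39 and an edgeR adjusted p of 0.109. The sign at these ends depended on the scaling, with a median of -0.85 on the 5 kb bins and 0.33 with TMM on the windows.

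The 195 windows elsewhere in the genome averaged 177, 231 and 206 normalized counts in Δfkh2 and 253 and 314 in clr6-1 (log2 difference -0.47, exact permutation p = 0.1). Their median of -0.55 also turned with the scaling, to 0.55 with TMM on the windows. The Tf2 retrotransposons, long terminal repeat elements present in many near-identical copies, lay in this class. All 13 annotated elements had the 3 Δfkh2 libraries below clr6-1, at 149 to 217 against 227 to 338 normalized counts per window, with a median of -0.61. Of the 195 single windows of this class 130 (66.7%) had this order, against 51.1% of all windows. A window of 5 elements had an edgeR adjusted p below 0.05, the lowest at 0.0348, but none reached a fold change of 2, the lowest log2 difference being -0.85. Their copies share fragments and are not independent of each other. The 25 wtf genes, meiotic drivers, had no enriched window.

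Outside the enriched windows the genotypes were close. Among 2352 bins of 5 kb without an enriched window the median log2 difference was 0.005, and 90% of bins lay between -0.11 and 0.14. Of all 2520 bins, 1 was called lower in Δfkh2 (0.0397%) and 0 higher (0%) by edgeR, with 185 lower and 227 higher at an unadjusted p below 0.05, and the DESeq2 Wald test called 1. The called bin, I:2935001-2940000, holds cbm1, which encodes a cellulose-binding domain protein, and several long non-coding RNAs. It read 249.6, 221 and 368 normalized counts in Δfkh2 and 955 and 1362 in clr6-1, with 270.5 and 321 in wild-type. The median bin without an enriched window read 1742 to 1751 in these 5 libraries, so all of them were under the background over this bin, Δfkh2 and wild-type by more (log2 difference -2.03, SE 0.26, edgeR adjusted p = 0.00148). The call was lost without clr6-1 A, clr6-1 B or Δfkh2 A. Inputs were not analysed, and whether the difference over this bin reflects H3K9me2 was not tested.

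The forkhead motif was described in the windows because Fkh2 binds DNA of this kind. GTAAACA on either strand, with overlaps allowed, occurred in 9.16% of the 41905 tiles of 300 bases that cover chromosomes I, II and III, and in 6.62% of the enriched windows with reference sequence. It occurred in 2.35% of dg/dh windows, 10.3% of tlh windows, 5.09% of centromere flank windows, 10.5% of subtelomere flank windows and 0 of 25 island windows. Within the dg/dh repeats the median difference was -2.32 for the 8 windows with a match and -2.20 for those without. Over all windows with sequence it was 0.020 for 95 with a match and -0.56 for those without, and among the windows of the mating type locus on chromosome II it was 0.099 for 4 with a match and -1.47 for the rest. The zones differ in how often they hold the motif, and the differences were not tested. A match in a window is a description of its letters, and binding was not measured in these libraries.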

How the data were processed

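H3K9me2 ChIP libraries were analysed from raw fragment counts deposited by the authors without normalization, in 1500 filtered windows of 300 bp and 2520 bins of 5 kb. To make the counts, the authors used Trimmomatic 0.39, Bowtie2 2.4.2, Picard 2.25.2, SAMtools 1.12 and csaw, counted paired fragments without duplicates, dropped the surroundings of the mat1 genes, prw1, fkh2, ura4 and ade6, and retained windows whose signal exceeded the background median 1.7 times. Repeat copies can share fragments. The labels name the build ASM294v2, and names and sequence come from RefSeq ASM294v3, with equal chromosome lengths. The mating type contig was used by counts only.

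The members, zones and gene lists were chosen with earlier results of these data known. All 13 libraries of 5 genotypes entered one edgeR 4.0.16 quasi-likelihood fit (R 4.3.3) on genotype alone, with DESeq2 1.42.0 size factors from the 5 kb bins. These were 1.01, 0.999 and 1.15 for Δfkh2 A, B and C and 0.625 and 0.466 for clr6-1 A and B. Calls needed a Benjamini-Hochberg adjusted p below 0.005 over all windows and a log2 difference beyond 1. Fits were also run on simulated data. Recovery was required there only of edgeR, at a dispersion below that of the data and an adjusted p below 0.05. It was not required at the threshold used for calls.

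Windows within 10 kb of the centromeric run of windows (gaps up to 5000 bases) were dg/dh if at least 50% was covered by BLAST 2.17.0 matches of at least 300 bases and 90% identity to another centromere, and otherwise flank. Subtelomere flanks were the outermost 100 kb of chromosomes I and II. Named windows were, per zone, the lowest and the highest called ones with groups that do not overlap, or the one with the largest difference where none was called. The vps29 neighbours, the left repeat window, num1, SPAC750.08C, SPBTRNALEU.07 and the dg/dh window with the motif were named after their values were seen. Zone levels, ratios and shares were compared by 2-sided exact permutation tests over libraries. Alternatives were other size factors, the DESeq2 Wald test, 2 genotypes only, a replicate block, another threshold, no fold threshold, a filter on low counts, medians for sums, background subtraction and leaving out each library.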

Additional observations from a re-analysis of the deposited data

How the results depend on the processing

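Windows called lower and higher in Δfkh2, 3 and 3 in the reported fit, numbered 248 and 0 with the DESeq2 Wald test, 1 and 2 without its filter on mean count (added after the data had been seen), 255 and 566 with TMM on the windows, 199 and 557 with the total count of the bins, 0 and 664 with size factors from the nucleation windows, 0 and 0 with only the 2 genotypes in the fit, and 466 and 54 at an adjusted p of 0.05. Leaving out single libraries gave 0 to 476 lower and 0 to 3 higher windows, and 0 to 1 called bin. A replicate block gave 390 lower and 16 higher. Deviations from the genotype means correlated between Δfkh2 and clr6-1 at -0.01 for A and -0.26 for B. With 2 clr6-1 libraries the deviations of A and B mirror each other, so this check cannot exclude a batch shared by libraries of one letter. The B library had the largest share of fragments in the windows in wild-type, Δfkh2, clr6-1 and the prw1 deletion, and the smallest in the clr3-D232N mutant.

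With TMM on the windows, the nucleation windows and the total count, in that order, the zone medians were -1.25, -0.056 and -1.32 in dg/dh, -1.01, 0.21 and -1.10 in tlh1 and tlh2, 1.56, 2.80 and 1.45 in centromere flanks, 1.35, 2.58 and 1.25 in subtelomere flanks, 1.52, 2.79 and 1.40 in islands, -0.70, 0.46 and -0.78 at the mating type locus, 0.33, 1.66 and 0.15 at chromosome III ends and 0.55, 1.84 and 0.41 elsewhere. Without the 25% of windows of lowest count the median elsewhere was -0.16. Leaving out single libraries gave -0.76 to -0.32 elsewhere and -0.035 to 0.56 in subtelomere flanks, where Δfkh2 B set the sign.

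Summed levels with the total count were -1.31 in dg/dh, -1.11 in tlh1 and tlh2, 0.068 in centromere flanks, -0.30 in subtelomere flanks, 1.61 in islands, -0.90 at the mating type locus, -0.058 at chromosome III ends and 0.49 elsewhere. Medians over windows in place of sums gave 0.64 in centromere and 0.50 in subtelomere flanks, and background subtraction 2.44 in islands and -0.86 elsewhere. The ratio of spreading to nucleation differed by 2.74 with medians, 1.38 at centromeres and 0.81 at subtelomeres. With nucleation size factors the named windows at II:4527601, II:2135401, III:2448601 and III:276601 turned to 0.087, 0.039, 1.08 and 0.78. The cause of these shifts was not tested. With 3 libraries against 2, no exact test could pass 0.05, and levels near the background limit what the islands and distal flanks can show.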
